A study of Homo sapiens with 12 samples.

Results

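HEK293 cells that received a short hairpin RNA (shRNA) against MED12 were compared with HEK293 cells that overexpressed MED12 without its PQL and Opa domains. The comparison took 6 of the 12 arrays of the series, 3 of each group, chosen by their titles. It is described over the 14432 rows of the array that carry 1 gene symbol, of 22011 rows in all. HEK293 is an established human embryonic kidney line. Per the labels, cells were transfected with a Lipofectamine reagent at 24 hours after plating, grown for another 48 hours, and sorted for living, GFP-positive cells over 20 minutes per sample.

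The hairpin was made from an H1 promoter in the plasmid peGFP-C1. The deleted MED12 carried an N-terminal nuclear GFP tag and was expressed from pcDNA5/TO. The other 6 arrays, 3 with nuclear GFP alone and 3 with full-length MED12 carrying the same tag, were both in pcDNA5/TO. They served to estimate the spread and are given for reference. The labels describe 0 groups with a control hairpin. Less MED12, more of a shortened MED12, a hairpin and a different GFP plasmid therefore all separate the groups compared, and their parts in a difference cannot be told apart.

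Mediator passes signals from transcription factors on to RNA polymerase II. MED12 belongs to its detachable kinase module, where it activates the kinase CDK8. The PQL and Opa domains are stretches near its C-terminal end, the first rich in proline, glutamine and leucine and the second in glutamine. Interferons are secreted signals of virus infection. Their receptors activate transcription factors, IRF9 among them, that bind the interferon-stimulated response element in the promoters of antiviral genes. The heat shock response works in a like way through HSF1, which binds heat shock elements in the promoters of chaperone genes when proteins misfold.

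In short, MED12 itself differed most. Apart from it, interferon-induced genes were higher in the hairpin cells, with IFI44, NMI and TRIM22 past the threshold. ZFAND2A and 2 rows that hold heat shock genes were lower in them. In all, 7 rows passed an adjusted p of 0.05 (limma, Benjamini-Hochberg over all rows), which is 0.0318% of those tested, with 3 higher (0.0136%) and 4 lower (0.0182%) in the hairpin cells. Of these, 5 carry 1 symbol and 2 carry several. After quantile normalization between the arrays 21 rows passed, 14 higher and 7 lower, so the split between the directions depends on the normalization. With 1 array left out between 3 and 20 rows passed: 20, of them 16 lower, without shRNA replicate 2, 3 without shRNA replicate 3 or PQL/Opa deletion replicate 3, and 4 without PQL/Opa deletion replicate 1 or 2, GFP replicate 2 or 3, or full-length replicate 1 or 2.

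The promoters of the higher genes are shown first, because many of them hold the letters of the interferon-stimulated response element. The core was searched on both strands as 2 GAAA units in the same direction with 2 bases between them, in the 250 bases before the start of each gene in the RefSeq promoter table (build GRCh38.p14). It stood in 839 of all 27305 promoters, 3.07%, and in 2.54% of the 11386 promoters of genes measured here. Of the 10 genes with the smallest p among those higher in the hairpin cells, 7 have an entry in the table, and 4 of the 7 hold the core. The stretches around it are written along the gene's own strand, with the match in capitals. IFI44 lies on the plus strand (chr1:78649731-78649788), and its match ends 9 bases before the start. The stretch of NMI is on the minus strand (chr2:151289782-151289871), that of SAMD9 on the minus strand (chr7:93118066-93118155) and that of IFITM1 on the plus strand (chr11:313960-314039).
IFI44: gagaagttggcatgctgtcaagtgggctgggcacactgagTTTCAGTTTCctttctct
NMI: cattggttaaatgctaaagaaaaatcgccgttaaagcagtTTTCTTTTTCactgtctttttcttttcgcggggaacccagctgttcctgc
SAMD9: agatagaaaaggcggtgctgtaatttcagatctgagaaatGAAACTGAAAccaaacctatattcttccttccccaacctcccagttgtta
IFITM1: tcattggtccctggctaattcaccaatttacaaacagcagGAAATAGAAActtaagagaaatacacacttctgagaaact

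The promoters of RSAD2, NT5C3A and ERAP2 had no such letters in this window, and TRIM22, IFIT2 and OAS2 are not in the table. The core was also found in 8 of 17 promoters of the antiviral effector list described below, 47.1%, in 16 of 30 of the other interferon-induced genes, 53.3%, and in 7 of 12 of the MHC class I genes, 58.3%. Of the 10 genes with the smallest p among those lower in the hairpin cells, 0 held it. The heat shock element, searched on both strands as alternating GAA and TTC units with 2 bases between neighbours, 3 units in a row, was in 120 of 27305 promoters, 0.439%, and in 0 of these 10. It was in 1 of 14 promoters of the HSP70 list, 7.14%, in 1 of 4 of the HSP90 list, in 1 of 11 of the small heat shock proteins and chaperonins, 9.09%, and in 0 of 16 of the DNAJ list. Single matches were not confined to heat shock lists: the Hedgehog list had it in 1 of 11, 9.09%, and the Mediator core in 1 of 16, 6.25%. A match is a description of the letters only.

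MED12 served as the check of the labels. Its log2 value was 3.63, 3.63 and 3.74 on the hairpin arrays and 8.62, 8.90 and 9.25 with the deleted construct. All hairpin arrays lay far below all arrays of the construct. The difference was -5.25 ± 0.20 (SE) on the log2 scale, 38.2-fold more signal with the construct (limma, adjusted p = 2.72e-07). The GFP arrays lay between them, at 4.03, 4.56 and 4.66. Most of the gap lay above GFP, where the construct stood 4.51 higher (limma, adjusted p = 1.54e-06), while the hairpin cells stood 0.75 lower than GFP (-0.75, limma, adjusted p = 0.73), a difference that did not pass. The signal with the construct can include RNA made from the plasmid, and which part of MED12 the probes of its row cover is not given in the sources used here.

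The other genes of the kinase module were close between the groups. MED12L, the paralogue of MED12, differed by -0.15 ± 0.18 (95% interval -0.55 to 0.25; adjusted p = 0.879). CCNC, the cyclin of the module, had the smallest p of the rest, with 5.19, 5.62 and 5.65 in the hairpin cells against 5.72, 5.74 and 5.99, a difference of -0.33 ± 0.24 (adjusted p = 0.792). MED13, which tethers the module to Mediator, differed by -0.14 ± 0.35 (adjusted p = 0.95), and after quantile normalization by 0.04. Of the 21 measured genes of the Mediator core 0 passed (limma), and 1 reached an unadjusted p under 0.05 (5.87% of all genes). The smallest p belonged to the head subunit MED8, at -0.42 ± 0.17 (adjusted p = 0.674).

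**Figure D1:**
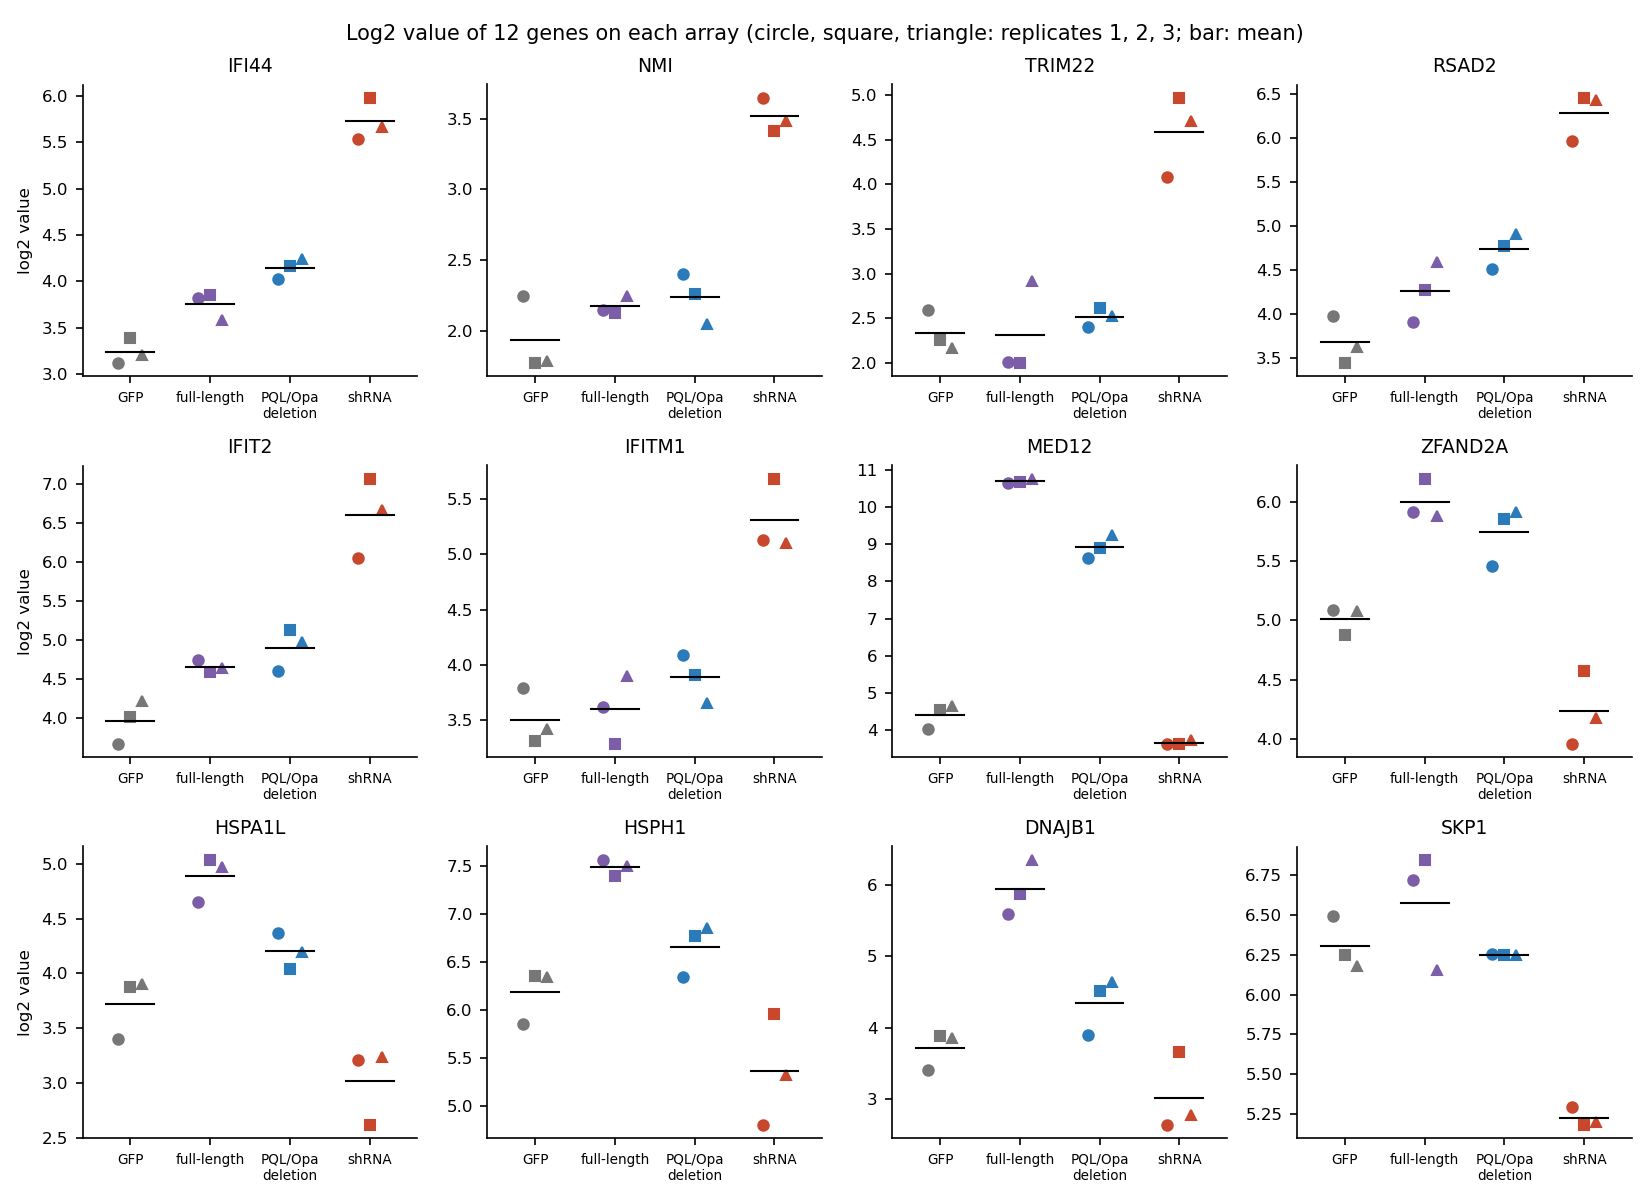
Log2 values of 12 genes (vertical axes, each with its own range) on the 12 arrays by group; circles, squares and triangles are replicates 1, 2 and 3 and the bars are group means. In every panel the 3 hairpin arrays lie apart from the 3 arrays with the PQL/Opa deletion. The genes were picked for a small p in this same comparison, so the separation follows from the choice.

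IFI44, which is induced by interferon, was the gene with the smallest p after MED12. Its log2 value was 5.54, 5.98 and 5.66 in the hairpin cells and 4.03, 4.17 and 4.24 with the deleted construct. The lowest hairpin array was more than 1 log2 unit above the highest array of the other group. The difference of 1.58 ± 0.16 is 2.99-fold (limma, adjusted p = 0.00488). It passed with any 1 of the 12 arrays left out, between 1.45 and 1.67. The GFP arrays were lower than both groups, at 3.12, 3.39 and 3.21.

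TRIM22, an interferon-induced ubiquitin ligase that restricts viruses, had the largest difference among genes higher in the hairpin cells. It was at 4.08, 4.97 and 4.71 there and at 2.40, 2.62 and 2.53 with the construct. The groups stood apart, and the construct's arrays were at the height of GFP (2.60, 2.26 and 2.17). The difference was 2.07 ± 0.28, or 4.2-fold (limma, adjusted p = 0.0325). NMI, which binds MYC proteins and is itself induced by interferon, was at 3.65, 3.42 and 3.49 against 2.40, 2.26 and 2.05. Its difference of 1.28 ± 0.17 is 2.43-fold (limma, adjusted p = 0.03). TRIM22 and NMI gave dim signals with the construct, at the 19.5th and 13.5th percentile of all rows on those arrays. TRIM22 passed in 3 and NMI in 2 of the 12 fits with 1 array left out, with differences of 1.88 to 2.32 and of 1.19 to 1.36. With only the 6 arrays compared in the fit, MED12 alone passed.

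The next 7 genes by p on this side did not pass. RSAD2, the enzyme viperin that makes a chain-terminating nucleotide against viruses, was at 5.96, 6.45 and 6.43 against 4.51, 4.78 and 4.91, a difference of 1.55 ± 0.22 (adjusted p = 0.0545). IFIT2, which binds viral RNA, was at 6.06, 7.07 and 6.68 against 4.61, 5.13 and 4.98, a difference of 1.70 ± 0.25 (adjusted p = 0.0545). IFITM1, which blocks the entry of viruses at the membrane, was at 5.13, 5.68 and 5.11 against 4.09, 3.91 and 3.66, a difference of 1.42 ± 0.22 (adjusted p = 0.0853). In each of these the lowest hairpin array was above the highest array of the construct. The other 4 were the antiviral gene SAMD9 at 1.02 ± 0.16 (adjusted p = 0.0761), OAS2, an enzyme that turns double-stranded RNA into the signal for RNase L, at 1.20 ± 0.20 (adjusted p = 0.125), the nucleotidase NT5C3A at 1.23 ± 0.21 (adjusted p = 0.144) and ERAP2, which trims peptides for MHC class I, at 0.80 ± 0.15 (adjusted p = 0.155). After quantile normalization RSAD2 (adjusted p = 0.00397), IFIT2 (0.00165), SAMD9 (0.0129), IFITM1 (0.0118) and OAS2 (0.0405) passed, and NT5C3A (0.112) and ERAP2 (0.157) did not.

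The whole list of antiviral effectors lay on one side. Of its 33 genes 23 were measured, and all 23 had a difference above 0, against 55.0% of all 14232 genes (1 row each). The adjusted threshold was passed by 1 of the 23, TRIM22, where 0.0211% of all genes passed in the higher direction, 0.0141% in the lower and 0.0351% in either. An unadjusted p under 0.05 with a higher value in the hairpin cells was reached by 16 of the 23, where 2.73% of all genes reached it, and by 0 with a lower value (3.14%; 5.87% in either direction). The arrays of the groups did not overlap for 16, all higher in the hairpin cells, where 5.88% of all genes were so. The median difference was 0.83, against 0.03 over all genes, and it was 0.75 after quantile normalization. Leaving out any 1 array kept the median between 0.73 and 0.83.

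Within this list the members differed widely. IFIT1, the cap sensor of the same family as IFIT2, was at 6.57, 7.47 and 6.64 against 5.01, 5.88 and 5.51, a difference of 1.43 ± 0.27 (adjusted p = 0.189; 0.0118 after quantile normalization). OAS1 was at 4.09, 5.06 and 4.50 against 3.19, 3.40 and 3.16, a difference of 1.30 ± 0.24 (adjusted p = 0.16; 0.0435 after quantile normalization). BST2, which ties budding virus to the cell, was at 3.36, 3.06 and 2.92 against 2.45, 2.25 and 2.17, a difference of 0.83 ± 0.18 (adjusted p = 0.369). At the other end stood ZC3HAV1 at 0.07 ± 0.15, ADAR at 0.18 ± 0.20, which edits double-stranded RNA, and OAS3 at 0.32 ± 0.15. MX1, a dynamin-like GTPase, differed by 0.48 ± 0.20 and its neighbour MX2 by 0.63 ± 0.19. None of IFIT1, OAS1, BST2 and the genes after them passed, and they were chosen after their values were seen.

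Neighbours on a chromosome, taken from the order of protein-coding genes in RefSeq, were alike in size in some pairs and not in others. RSAD2 (1.55 ± 0.22) lies beside CMPK2, which differed by 0.18 ± 0.24. OAS1 and OAS2 (1.30 ± 0.24 and 1.20 ± 0.20) flank OAS3 (0.32 ± 0.15). SAMD9 and SAMD9L were closer, at 1.02 ± 0.16 and 0.93 ± 0.19, as were IFIT1 and IFIT5 at 1.43 ± 0.27 and 0.97 ± 0.28. The difference between neighbours was not tested.

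Of 40 interferon-induced genes of other or unsettled function 35 were measured. IFI44 and NMI passed in the higher direction and 0 passed in the lower. The difference was above 0 for 30 of the 35 (55.0% of all genes), an unadjusted p under 0.05 was reached by 16, all higher (2.73% of all genes), and the median was 0.36. XAF1, which promotes apoptosis, was at 4.28, 4.15 and 4.38 against 2.45, 3.33 and 3.32, a difference of 1.24 ± 0.31 (adjusted p = 0.52). PARP14, an ADP-ribosyltransferase, was at 5.14, 6.01 and 5.40 against 4.39, 4.88 and 4.51, a difference of 0.92 ± 0.23 (adjusted p = 0.488), and it passed after quantile normalization (adjusted p = 0.0402). Both genes had groups that did not overlap. The chemokine CXCL10 differed by -0.05 ± 0.28 and LY6E, a membrane protein, by -0.14 ± 0.18.

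The sensors that start the interferon response were split. RIGI, which detects viral RNA in the cytosol, was at 5.94, 7.01 and 6.45 against 4.81, 5.39 and 5.49, a difference of 1.23 ± 0.29 (adjusted p = 0.434; 0.0147 after quantile normalization). IFIH1, the sensor of long double-stranded RNA, was at 4.91, 5.60 and 5.27 against 4.05, 4.56 and 4.48, a difference of 0.90 ± 0.22 (adjusted p = 0.475; 0.0407 after quantile normalization). TLR3, the endosomal sensor of double-stranded RNA, was at 3.85, 3.24 and 3.22 against 2.68, 2.33 and 2.17, a difference of 1.04 ± 0.28 (adjusted p = 0.547). These sensors are themselves interferon-induced genes. Of their adaptors and kinases, MAVS was at 0.27 ± 0.18, TICAM1 at -0.06 ± 0.16 and TBK1 at 0.11 ± 0.18. The DNA sensor CGAS was at 0.09 ± 0.26 and its partner STING1 at 0.02 ± 0.29. Over the 15 measured of 16 genes the median was 0.26, with 0 past the threshold. An unadjusted p under 0.05 was reached by 4, all higher (2.73% of all genes).

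The signalling genes between receptor and promoter were close to all genes in their median, 0.06 over 20 measured of 26. An unadjusted p under 0.05 was reached by IRF2 (0.45 ± 0.17) and IRF3 (0.31 ± 0.13), both higher (2.73% of all genes), and 0 passed. IFNAR1 and IFNAR2, the chains of the type I receptor, differed by 0.36 ± 0.35 and 0.09 ± 0.23. IRF9 differed by -0.12 ± 0.23 and IRF7 by 0.05 ± 0.15. The interferon genes themselves gave dim signals. IFNB1 was at 2.31, 2.04 and 2.21 against 1.90, 1.69 and 1.99, a difference of 0.33 ± 0.26 (adjusted p = 0.804), at the 7.54th percentile of all rows with the construct. Of the 6 interferon genes measured 0 reached even an unadjusted p under 0.05. Their median was 0.32, or 0.19 after quantile normalization, with 5 of the 6 above 0. With 1 array left out it was between 0.14 and 0.48. The dim genes of the array were shifted upwards, as described below. The dimmest bin had a median of 0.16, or 0.05 after quantile normalization, with 80.34% above 0. The part of this shift in the interferon genes was not tested.

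ISG15 is a ubiquitin-like protein that interferon-induced enzymes join to other proteins. It was at 5.03, 4.58 and 4.58 in the hairpin cells against 3.98, 3.84 and 3.92, a difference of 0.82 ± 0.20 (adjusted p = 0.482). Its conjugating enzyme UBE2L6 differed by 0.40 ± 0.16 and the ligase HERC5 by 0.53 ± 0.28. All 6 measured genes of this pathway had a difference above 0 (55.0% of all genes), and 0 passed (limma). An unadjusted p under 0.05 was reached by 3 of the 6, all higher (2.73% of all genes). Of 20 MHC class I genes 14 were measured, with a median of 0.26, and 0 passed (limma). The difference was above 0 for 11 (55.0% of all genes). An unadjusted p under 0.05 was reached by 3, all higher (2.73% of all genes). The peptide transporter TAP1 was at 4.58, 4.89 and 4.78 against 4.30, 4.33 and 4.25, a difference of 0.46 ± 0.17 (adjusted p = 0.668). The light chain B2M differed by 0.47 ± 0.22 (adjusted p = 0.709), while HLA-E and HLA-F differed by -0.12 ± 0.22 and -0.03 ± 0.24. NF-kappaB targets, another branch of the response to viral RNA, had a median of 0.05 over 18 genes, and the chemokine CCL2 was at 0.61 ± 0.27 (adjusted p = 0.684).

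The reference arrays place the 2 groups for these genes. Both comparisons with GFP use the same 3 GFP arrays. The antiviral effectors had a median of 0.90 for the hairpin against GFP and of 0.25 for the construct against GFP. The median deviation of the list from its mean over all arrays was 0.59, 0.97 and 0.65 on the hairpin arrays and -0.11, -0.04 and -0.05 on those of the construct. It was -0.36, -0.37 and -0.35 on the GFP arrays and -0.14, -0.35 and -0.18 with full-length MED12. So the 3 hairpin arrays were apart from the other 9. For single genes, RSAD2 stood 2.60 above GFP with the hairpin (adjusted p = 0.00117) and 1.05 with the construct (adjusted p = 0.86), and IFIT3 stood 2.38 and 1.39 above it. IFIT3 therefore differed between the groups by only 0.99 ± 0.27.

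**Figure D2:**
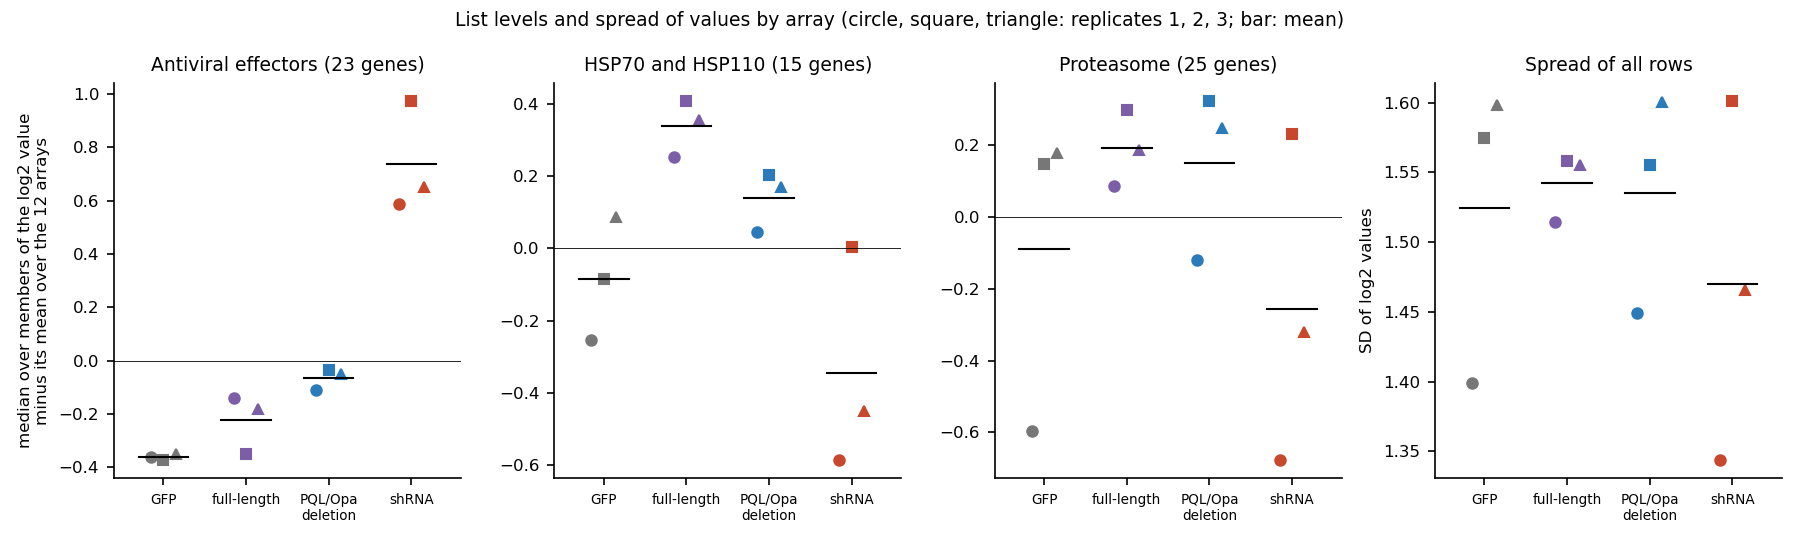
The first 3 panels give the median over the members of a list of the log2 value minus its mean over the 12 arrays (vertical axis), by group and replicate, for antiviral effectors, HSP70 and HSP110 genes and proteasome subunits; the last panel gives the standard deviation of all 22011 log2 values of each array. In the first panel the hairpin arrays lie from 0.59 upwards and those of the PQL/Opa deletion from -0.04 downwards. In the second they are barely apart, from 0.00 downwards against 0.05 upwards. By the median log2 value of that list on each array they overlap (hairpin up to 4.30, PQL/Opa deletion from 4.27). In the third panel the groups overlap, and shRNA replicate 1 and GFP replicate 1, the arrays with the narrowest spread, are lowest.

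On the other side, ZFAND2A was the gene with the smallest p after MED12. It encodes AIRAP, a heat shock- and arsenite-induced protein bound to the proteasome. Its log2 value was 3.96, 4.58 and 4.18 in the hairpin cells and 5.46, 5.85 and 5.91 with the construct, and the groups stood apart. The difference was -1.51 ± 0.19, or 2.84-fold more with the construct (limma, adjusted p = 0.0299). It passed in 3 of the 12 fits with 1 array left out, with differences of -1.68 to -1.37. GFP lay between the groups, at 5.09, 4.87 and 5.08.

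The 2 rows with several symbols that passed each include at least 1 gene of the HSP70 list, and no single gene can be assigned to them. Row 2363784 was at 3.61, 3.16 and 3.25 against 5.61, 5.46 and 5.40, a difference of -2.15 ± 0.17 (limma, adjusted p = 0.000389). Row 2902725 was at 4.22, 4.65 and 4.57 against 6.30, 6.25 and 6.40, a difference of -1.84 ± 0.21 (limma, adjusted p = 0.00979). In both, GFP lay between the groups. The hairpin cells stood below GFP by 1.11 in the first row (-1.11, adjusted p = 0.0448) and by 0.87 in the second (-0.87, adjusted p = 0.542). The construct stood above GFP by 1.03 (adjusted p = 0.598) and 0.96 (adjusted p = 0.86).

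Of the 20 genes of the HSP70 and HSP110 list 15 were measured on rows of their own. The difference was below 0 for 14 of them and 0 passed. Of all genes 55.0% were above 0. In the bin of genes at levels of 4.19 to 4.73, described below, 31.13% were. The list's median level of 4.34 lay in that bin. An unadjusted p under 0.05 with a lower value was reached by 6 of the 15, where 3.14% of all genes reached it, and the groups did not overlap for 5, where 5.01% of all genes were so. The list's median was -0.41, and -0.34 after quantile normalization, between -0.57 and, without shRNA replicate 1, -0.25 with 1 array left out. That of the bin was -0.12, and -0.04 after quantile normalization. HSPA1L, a member of the HSP70 family, was at 3.21, 2.62 and 3.23 against 4.37, 4.04 and 4.20, a difference of -1.19 ± 0.21 (adjusted p = 0.152). HSPH1, the HSP110 that recharges HSP70 with nucleotide, was at 4.80, 5.96 and 5.32 against 6.34, 6.77 and 6.85, a difference of -1.29 ± 0.27 (adjusted p = 0.324; 0.0406 after quantile normalization). HSPA8, the constitutive HSP70, was at 8.57, 9.03 and 8.62 against 9.30, 9.57 and 9.26, a difference of -0.64 ± 0.17 (adjusted p = 0.551). The co-chaperone BAG3 was at -0.52 ± 0.17 (adjusted p = 0.646), with groups that did not overlap either. HSPBP1, an exchange factor of HSP70, was the member above 0, at 0.05 ± 0.15.

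The partners of HSP70 were led by DNAJB1, the co-chaperone that hands it substrates. It was at 2.64, 3.65 and 2.77 against 3.90, 4.52 and 4.63, a difference of -1.33 ± 0.30 (adjusted p = 0.417). DNAJB4 followed at -0.78 ± 0.23 (adjusted p = 0.619). Most of the 16 DNAJ genes measured were far smaller, with a median of -0.25 and 0 past (limma). An unadjusted p under 0.05 was reached by 2, both lower (3.14% of all genes). HSP90AA1, the inducible HSP90, was at 8.89, 9.36 and 9.19 against 9.15, 8.88 and 9.34, a difference of 0.02 ± 0.18, and it stood below GFP in both groups (-0.49 and -0.51). The HSP90 co-chaperone CHORDC1 rested on 1 array, at 1.21, 5.33 and 4.04 against 4.03, 4.11 and 4.75: its difference was -0.77 ± 0.82 and turned to 0.39 without shRNA replicate 1. Among small heat shock proteins and chaperonins, HSPB1 (0.15 ± 0.25) and HSPD1 (0.10 ± 0.32) were above 0 and the chaperonin subunit CCT7 was at -0.93 ± 0.33 (adjusted p = 0.663). HSF1 itself differed by 0.01 ± 0.25.

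DNAJB1 and HSPH1 had their highest values with full-length MED12. DNAJB1 was at 5.59, 5.86 and 6.35 there and at 3.41, 3.88 and 3.86 with GFP. HSPH1 was at 7.56, 7.39 and 7.49 against 5.86, 6.36 and 6.34 with GFP. For both, the arrays of the deleted construct lay below those of full-length MED12 and the hairpin arrays were the lowest by their mean. The HSP70 list had a median of 0.23 for the construct against GFP and of -0.26 for the hairpin against GFP. The arrays of both groups overlapped with those of GFP in the level of this list.

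The remaining genes that fill the lower side to 10 did not pass. SKP1, the adaptor of SCF ubiquitin ligases, was at 5.30, 5.18 and 5.20 in the hairpin cells against 6.26, 6.25 and 6.25, a difference of -1.03 ± 0.18 (adjusted p = 0.152). Its lowest difference with 1 array left out was -1.06, while quantile normalization brought it to -0.85 (adjusted p = 0.481). Here the construct was at GFP's height (-0.06) and the hairpin cells stood lower (-1.08, adjusted p = 0.1). GMNN, the inhibitor of replication licensing, behaved alike, at 4.36, 4.71 and 4.30 against 5.26, 5.23 and 5.23, a difference of -0.78 ± 0.17 (adjusted p = 0.369).

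UBB, a polyubiquitin gene, showed the other layout. It was at 8.68, 8.69 and 8.26 against 9.37, 9.49 and 9.30, a difference of -0.84 ± 0.16 (adjusted p = 0.189). The hairpin cells were at GFP's height (-0.09) and the construct was above it (0.75, adjusted p = 0.86). SSB, the La protein that binds new RNA polymerase III transcripts, was at 8.41, 7.95 and 7.92 against 8.82, 9.13 and 8.83, a difference of -0.83 ± 0.18 (adjusted p = 0.369). The kinesin KIF5C (-0.79 ± 0.17) and TENT5C, which extends poly(A) tails (-0.86 ± 0.19), complete the list, both with an adjusted p of 0.372.

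A trend with signal strength ran through the whole comparison and touches every list of bright or dim genes. When the 14232 genes were ranked by their mean log2 value and divided into 10 bins of near-equal size, the median difference went from 0.16 in the dimmest bin, where 80.34% of genes were above 0, to -0.22 in the brightest, where 19.94% were. After quantile normalization it went from 0.05 to -0.07. The spread of the log2 values also varied between arrays. Its standard deviation was 1.34, 1.60 and 1.47 on the hairpin arrays and 1.45, 1.56 and 1.60 on those of the construct. Without the 3 arrays of narrowest spread (replicate 1 of shRNA, PQL/Opa deletion and GFP) the median went from 0.13 in the dimmest bin to -0.19 in the brightest.

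**Figure D3:**
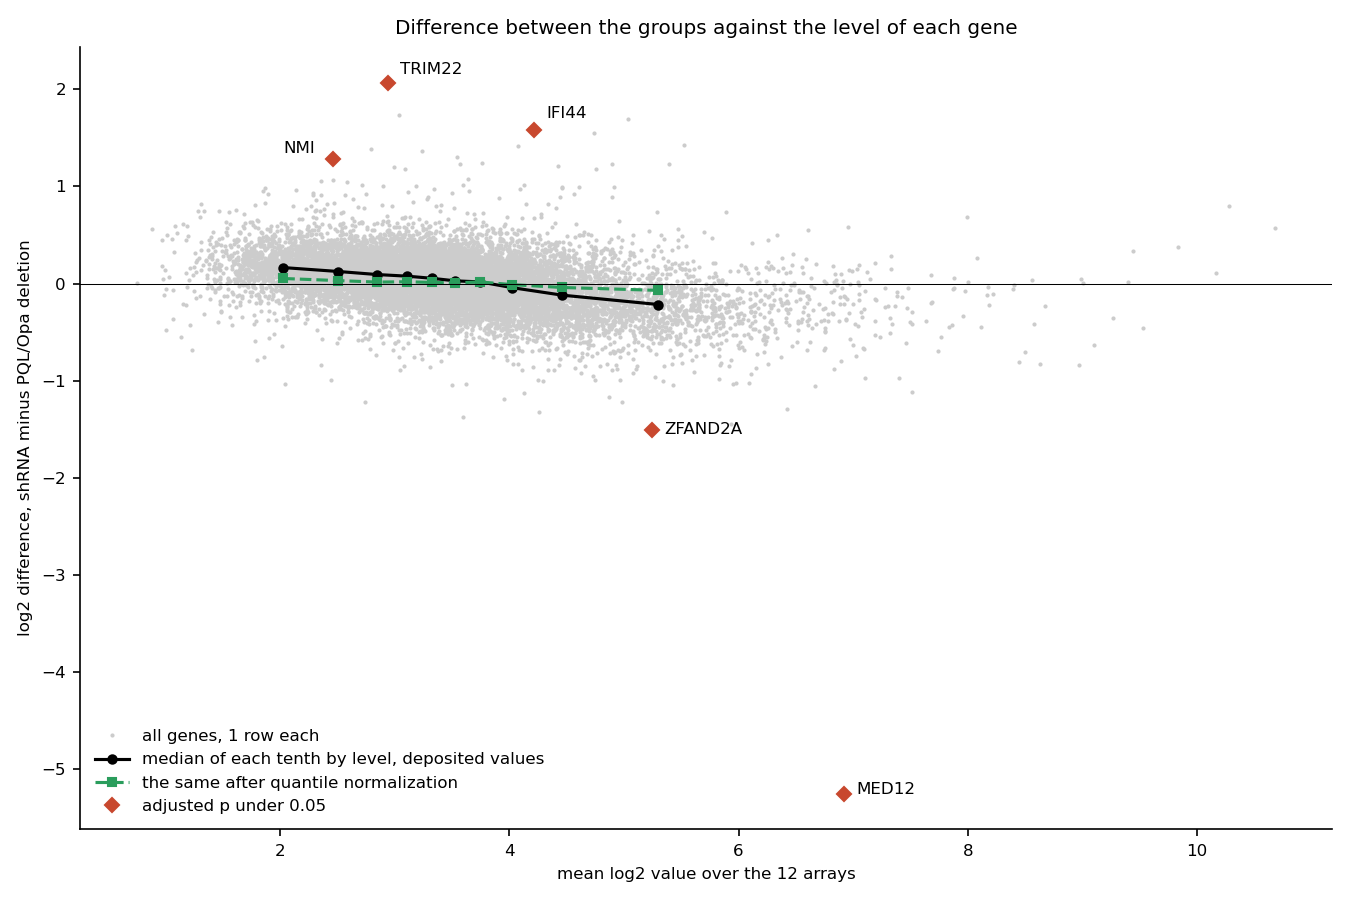
Log2 difference, shRNA minus PQL/Opa deletion (vertical axis), against the mean log2 value over the 12 arrays (horizontal axis) for 14232 genes, with the median of each of 10 bins of genes before and after quantile normalization and the 5 genes that passed as diamonds. The median falls from 0.16 to -0.22 along the axis, and the 5 genes lie outside the bulk of the others.

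Several lists of bright genes had medians below 0. Of 25 proteasome subunits 23 had a difference below 0. In the brightest bin, which holds their median level of 5.395, 19.94% of genes were above 0. The subunits' median was -0.34, against -0.22 in that bin. After quantile normalization it was -0.22, against -0.07 in that bin. The subunits' median ran from -0.60 without shRNA replicate 2 to -0.10 without shRNA replicate 1. Of the subunits 0 passed (limma). An unadjusted p under 0.05 was reached by 2, both lower (3.14% of all genes). The smallest p was that of PSMC2, an ATPase of the base, with overlapping groups. It was at 3.46, 5.11 and 3.70 against 5.29, 5.57 and 5.08 (-1.22 ± 0.38, adjusted p = 0.638). The medians were -0.26 over 31 spliceosome genes, -0.27 over 22 ribosomal protein genes and -0.29 over 10 RNA polymerase II subunits, and after quantile normalization -0.15, -0.19 and -0.22, all below the -0.07 of the brightest bin. Without shRNA replicate 1 those of the spliceosome and of RNA polymerase II were both -0.15, and without shRNA replicate 2 they were -0.46 and -0.49. The ATF4 amino acid stress genes were less bright, with a median log2 value of 4.14. Their difference was below 0 for 23 of 27, where 55.0% of all genes were above 0. The bin of genes at this level had 42.16% above 0 and a median of -0.04, or -0.01 after quantile normalization. An unadjusted p under 0.05 with a lower value was reached by 6 of the 27, where 3.14% of all genes reached it. The median of the ATF4 genes was -0.22 under both scalings. Among them the transfer RNA synthetase SARS1 was at -0.76 ± 0.26 (adjusted p = 0.654) and the asparagine synthetase ASNS at -0.85 ± 0.34 (adjusted p = 0.675).

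Of 13 mitochondrially encoded genes 2 were measured, and both had a difference above 0, as 19.94% of the brightest bin had. ND6, a subunit of respiratory complex I, was at 10.63, 10.40 and 10.74 in the hairpin cells against 10.08, 9.44 and 9.84, a difference of 0.80 ± 0.19 (adjusted p = 0.434). ND5 was at 10.68, 11.04 and 11.05 against 10.28, 10.15 and 10.61, a difference of 0.58 ± 0.18 (adjusted p = 0.639). Neither passed, and the groups did not overlap for either. The hairpin cells were at the height of GFP (-0.01 and 0.01), and the construct was below it (-0.81 and -0.57). The nuclear genes of oxidative phosphorylation had a median of -0.17 over 45 genes (-0.08 without shRNA replicate 1, -0.27 without shRNA replicate 2), with COX8A at -0.60 ± 0.19 (adjusted p = 0.639) and COX5A at 0.58 ± 0.21 (adjusted p = 0.666), both subunits of cytochrome c oxidase.

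Pathways tied to MED12 by earlier work were near the median of all genes. The Hedgehog list had a median of 0.01 over 13 genes, the Wnt list of -0.02 over 24 and the TGF-beta list of -0.00 over 19. GLI1, a target of Hedgehog signalling, was at 3.68, 3.43 and 3.71 against 3.44, 3.41 and 3.32, a difference of 0.22 ± 0.13 (95% interval -0.07 to 0.51). CTNNB1, which encodes beta-catenin and whose protein binds MED12, differed by -0.48 ± 0.24 (adjusted p = 0.713). NKD1, a feedback inhibitor of Wnt signalling, differed by 0.31 ± 0.14 (adjusted p = 0.684). Genes repressed by REST, for which MED12 recruits the methyltransferase G9a, had a median of 0.07 over 40. It was -0.07 without shRNA replicate 1 and 0.20 without shRNA replicate 2. Of the 40, 27 were above 0, where 65.64% of genes in the bin at their median level of 3.01 were. Among the REST genes NEFM, a neurofilament subunit, was at 4.68, 4.82 and 5.01 against 5.25, 5.63 and 5.27 (-0.55 ± 0.16, adjusted p = 0.637). CALB1, a calcium buffer, was at 0.51 ± 0.23 (adjusted p = 0.691). None of the genes in these 4 lists passed (limma). An unadjusted p under 0.05 was reached by 4, of which 1 in the Wnt list and 3 in the REST list. Of all genes 5.87% reached it.

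The growth lists were also without a gene past the threshold (limma). An unadjusted p under 0.05 was reached by 3 of their genes, all lower, where 3.14% of all genes were so. Both lists, with median levels of 4.20 and 4.38, lay in the bin with 31.13% of genes above 0 and a median of -0.12. The median was -0.13 over 33 genes of DNA replication, -0.04 without shRNA replicate 1, -0.06 without PQL/Opa deletion replicate 2, -0.24 without PQL/Opa deletion replicate 1 and -0.33 without shRNA replicate 2. Over 33 genes of G2 and mitosis it was -0.03 and had no stable sign: it was 0.05 after quantile normalization, 0.06 without shRNA replicate 1, 0.0021 without shRNA replicate 3, 0.03 and 0.05 without PQL/Opa deletion replicate 2 or 3, -0.16 without PQL/Opa deletion replicate 1 and -0.20 without shRNA replicate 2. CDC20, which activates the anaphase-promoting complex, stood out among the latter, at 2.12, 3.85 and 2.86 against 4.44, 4.32 and 4.19, a difference of -1.38 ± 0.35 (adjusted p = 0.537). It passed in 1 of the 12 fits with 1 array left out, the one without shRNA replicate 2. The serum response genes JUN (-0.43 ± 0.15, adjusted p = 0.654) and NR4A1 (0.40 ± 0.15, adjusted p = 0.669) pointed in opposite directions. Argonaute and small RNA processing genes had a median of -0.02 over 16, with MOV10, an RNA helicase, at 0.42 ± 0.19 (adjusted p = 0.691).

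**Figure D4:**
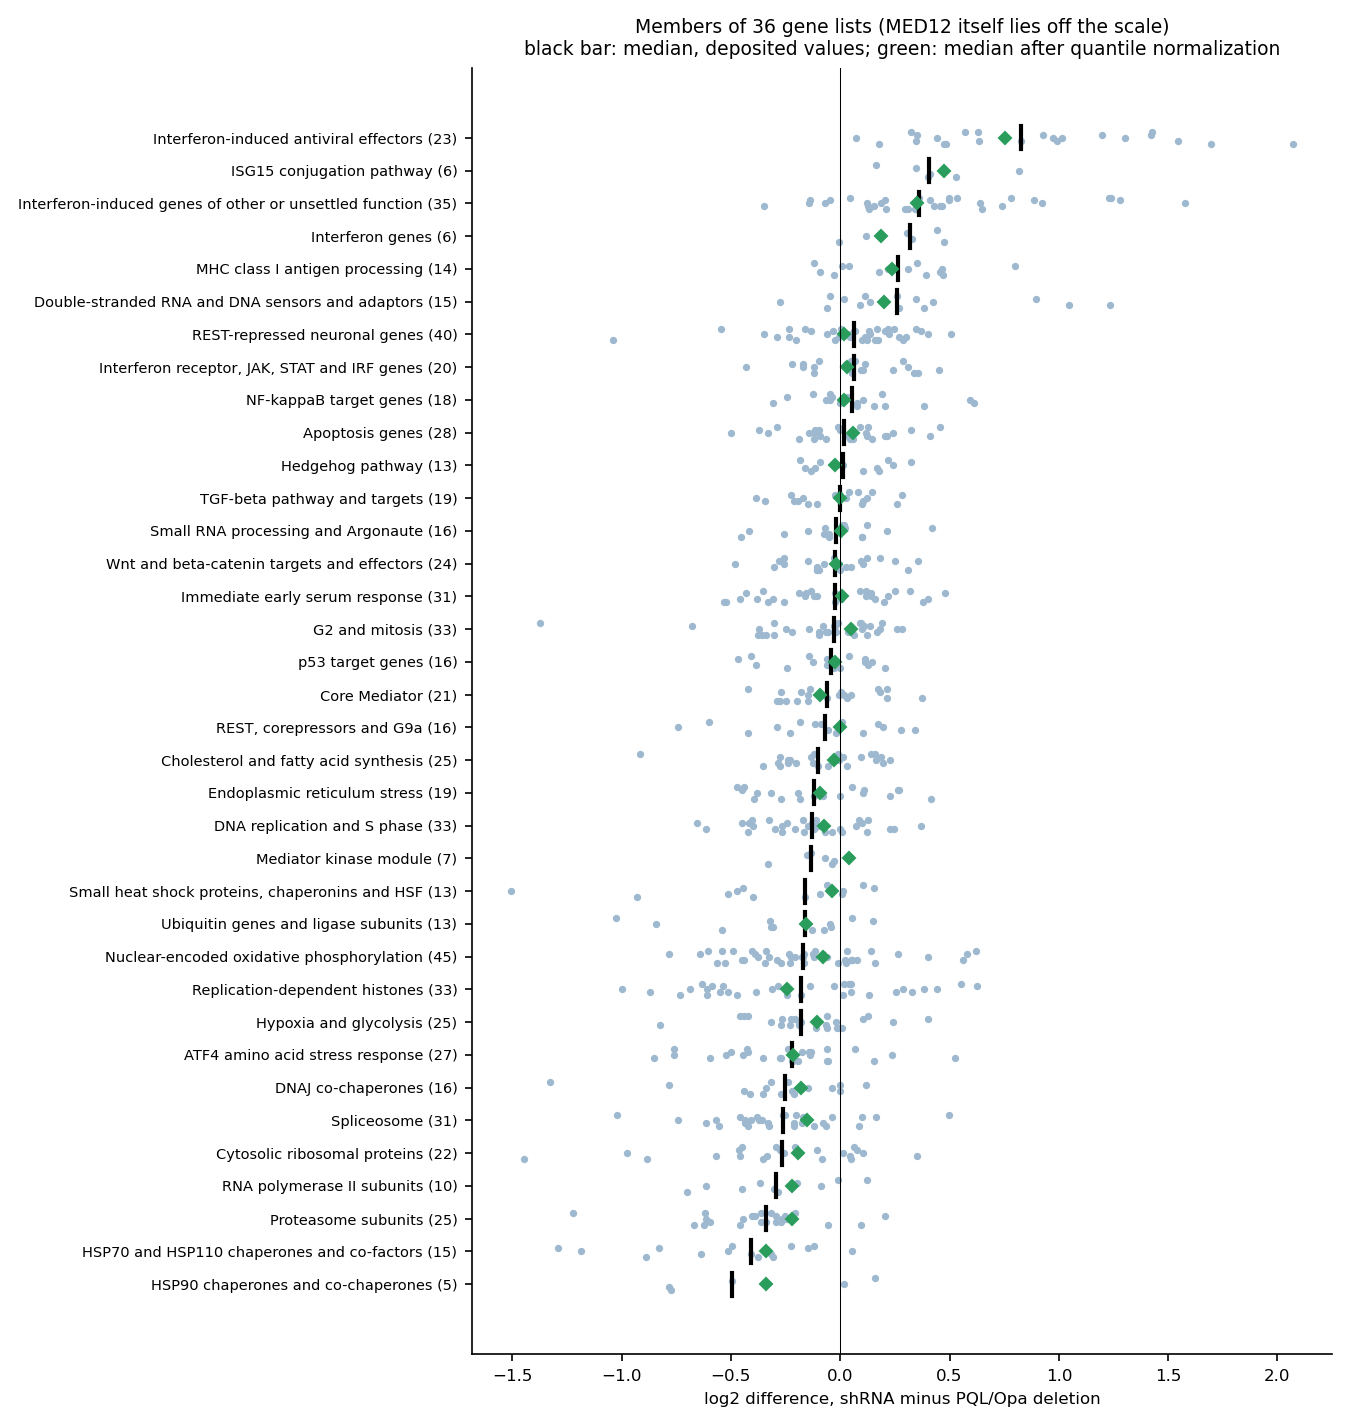
Log2 difference, shRNA minus PQL/Opa deletion (horizontal axis), of each measured member of 36 gene lists (rows, number of measured genes in brackets), with the median on the deposited values as a black bar and after quantile normalization as a green diamond. The antiviral effectors have the highest median, 0.83. That of the HSP90 list, -0.50 over 5 measured genes, turned to 0.12 without shRNA replicate 1, and that of the HSP70 list, -0.41, was -0.25 without it.

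The cells were checked against markers. Of 12 HEK293 markers 11 were measured, with a median log2 value of 4.24 and a median difference of -0.10. The difference was below 0 for 8 of the 11, where 31.13% of genes in the bin at this level were above 0. The groups did not overlap for 3 that were lower (5.01% of all genes) and 1 that was higher (5.88%). The keratin KRT8 and vimentin (VIM), picked from the 11, were bright in both groups. The lists for fibroblasts, lymphocytes, macrophages, endothelium, hepatocytes and adult kidney had median values between 2.40 and 3.34 over 3 to 7 measured genes each. Their medians were between 0.14 and 0.29, where the bins of genes at these levels had medians of 0.05 to 0.12. Without shRNA replicate 1 those of the lymphocyte and hepatocyte lists were -0.05 and -0.07. Of the genes of all these lists 0 passed (limma; 2 at an unadjusted p under 0.05, which 5.87% of all genes reached). The adult kidney list had the one among them that was higher, NPHS1, the slit protein of the glomerulus, at 3.71, 3.23 and 3.36 against 1.48, 2.19 and 3.08 (1.18 ± 0.40, adjusted p = 0.654). The summed log2 value of its 4 measured genes was 12.4 to 14.6 on the hairpin arrays and 11.4 to 12.0 on those of the construct. It was 12.4 to 13.9 on the GFP arrays and 12.6 to 13.7 with full-length MED12, so the hairpin arrays overlapped with both. The part of this list in the other results was not tested. In bulk RNA, fewer cells with a signal and less RNA per cell cannot be told apart.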

How the data were processed

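RNA from 12 samples was amplified (NuGEN WT-Ovation), labelled with biotin and hybridised to 1-colour exon arrays. The deposited values are log2 values per transcript cluster, 1 row per gene or group of genes. Per the submitters' processing notes, RMA in Partek was used with the build hg18, while no source used here gives the version, background option or probe set level. Symbols came from the platform annotation: 14432 of 22011 rows had 1, 2408 several and 5171 none, and 14404 of the first were found in RefSeq.

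Differences come from limma 3.58.1 (R 4.3.3), with 1 mean for each of the 4 groups and no trend in eBayes (degrees of freedom: 8 residual, 3.52 prior), two-sided, with Benjamini-Hochberg adjustment over 22011 rows and a threshold of 0.05. Every adjusted p in the text is from this model unless quantile normalization is named. Precision is set by 3 arrays per group: the standard error had a median of 0.23. With 3 against 3, exact permutation cannot give a p under 0.1. The script was tested on simulated data.

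MED12 and MED12L were named always, then up to 15 genes per direction past the threshold, filled to 10 by smallest p, and up to 4 per list by smallest p; other genes were chosen after their values were seen. For a gene with several rows (197 genes) the brightest was used in the lists. The comparison and the lists were chosen with earlier results of these data known. Replicate numbers are shared between the groups, but same-numbered arrays did not deviate together in all 3 pairs (correlations 0.45, 0.28 and 0.05), so no pairing was used. Tried as alternatives were quantile normalization, a fit on 6 arrays, a replicate block, an intensity trend, a filter on dim rows, and leaving out arrays.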

Additional observations from a re-analysis of the deposited data

How the results depend on the processing

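The direction of all 5 genes that passed held under each alternative run, except that NMI was removed by the filter on dim rows, and IFI44 and MED12 passed with each array left out. Of the 7 rows past the threshold, 1 passed (0 higher, 1 lower) when the fit held only the 6 arrays compared. After quantile normalization 21 did (14 higher, 7 lower), including all 7, and with the dimmest 25% of rows dropped 5 were higher. With 1 array left out, in alternatives of which those for GFP and full-length arrays were added after seeing the data, 3 to 20 rows passed, 1 to 5 higher and 2 to 16 lower. Of the list members, 5 passed in the fit as described, 1 with 6 arrays, 16 after quantile normalization, 3 without the 3 arrays of narrowest spread (replicate 1 of shRNA, PQL/Opa deletion and GFP), and 2 to 6 with 1 array left out.

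With the replicate number as a replicate block 7 rows passed (3 higher, 4 lower), 6 of them also without it: TRIM22 no longer passed and IFIT2 did. Same-numbered arrays were not the best match in all pairs, since shRNA replicate 2 correlated more with PQL/Opa deletion replicate 3 (0.43) than with replicate 2 (0.28). An intensity trend left 7 rows. The direction turned for 3 named genes, none of them past the threshold: MED13 (0.0418 after quantile normalization, 0.11 without shRNA replicate 1, 0.09 without PQL/Opa deletion replicate 3; -0.40 to 0.11 with 1 array left out), IFNK (-0.0002 without shRNA replicate 1, -0.21 without the 3 narrow arrays; -0.0002 to 0.77 with 1 array left out) and CHORDC1 (0.39 and 0.25 in the same settings; -1.67 to 0.39 with 1 array left out). The causes were not tested. Precision is limited by 3 arrays per group and, for dim genes such as NMI and the interferon genes, by signal near the low end of the array, for which no background call was used.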

Other observations

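Of the 14232 genes, 50 (0.351%) differed by more than 1 on the log2 scale, 28 higher and 22 lower in the hairpin cells. Of the 28, 12 were in the 2 interferon-induced lists or the ISG15 list, and of the 22, 0 were. These lists together held 63 of the 14232 genes, so few would fall among the 22 in any case. Outside the lists, 3 genes were chosen after their values were seen. APOL6, an intracellular apolipoprotein L, was at 3.44, 3.66 and 3.19 in the hairpin cells against 2.79, 2.20 and 2.26 with the PQL/Opa deletion, a difference of 1.01 ± 0.21 (limma, adjusted p = 0.295). Its relative APOL1, the trypanosome-killing factor of human serum, was at 2.64, 3.09 and 2.98 against 2.26, 2.22 and 2.10, a difference of 0.71 ± 0.17 (limma, adjusted p = 0.436). The olfactory receptor gene OR1E1 was at 3.74, 3.82 and 4.39 against 1.66, 3.26 and 1.84, a difference of 1.73 ± 0.38 (limma, adjusted p = 0.372), with a wide spread among the arrays of the construct. In all 3 the hairpin arrays lay above those of the construct, and none passed.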
